A study of Mus musculus with 25 samples.

Results

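Collagens and the genes of fibrogenic hepatic stellate cells were followed across mouse liver, peritumoral liver and liver tumors. The set was a list of 36 genes grouped by what they encode, out of 48795 gene identifiers in the expression tables. It was chosen with earlier results of these data known. It held 15 collagen chains, 5 matrix glycoproteins and elastic fiber genes, 3 small proteoglycans, 3 cross-linking enzymes, 4 cytoskeletal genes, both PDGF receptors, 2 stellate cell markers and 2 TGF-beta ligands. All 36 symbols were found, and all 36 passed the filter on low counts, which left 15625 genes for testing.

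Hepatic stellate cells lie between hepatocytes and the sinusoidal endothelium, where in healthy liver they store vitamin A as retinyl esters made by the enzyme Lrat. After injury they lose these stores, turn into contractile myofibroblasts and secrete fibrillar collagens I, III and V, fibronectin and the lysyl oxidases that cross-link collagen and elastin. TGF-beta drives matrix production and PDGF drives proliferation of these cells, while portal fibroblasts, vascular smooth muscle cells, endothelial cells and hepatocytes also make some of the same proteins.

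All mice were male C57BL/6J. The carcinogen diethylnitrosamine (DEN) was given by intraperitoneal injection at 25 mg/kg to mice 2 weeks old. A western diet (WD) or a control diet (CD) was fed from weaning until the livers were taken. The study's design gives 36 weeks of age for this, and its supplement a range that begins at 36 weeks. The 5 groups were untreated liver on CD (nonDEN-L-CD, 3 samples), untreated liver on WD (nonDEN-L-WD, 4 samples), DEN liver on CD (DEN-L-CD, 4 samples), peritumoral liver of DEN mice on WD (DEN-PT-WD, 8 samples) and tumors of DEN mice on WD (DEN-T-WD, 6 samples). The DEN-L-CD samples were whole liver, because their tumors were too small to be separated, and the labels do not say which tumor and peritumoral samples came from the same mouse, so p-values measured the spread between samples. Everything was whole tissue RNA, in which fewer cells of a type and less RNA per cell cannot be told apart.

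Summed counts per library ran from 21530083 to 38074411. A few libraries stood apart on these genes. In nonDEN-L-WD replicate 4, 30 of the 36 genes were lower than in the other 3 libraries of its group, and 26 of the 36 did not exceed the highest nonDEN-L-CD library. DEN-PT-WD replicate 7 was the highest of its 8 libraries for 13 of the 36 genes, and DEN-T-WD replicate 5 had a summed level of 8 hepatocyte genes of 32522 TPM (transcript counts scaled by length and to a fixed sum per library), against a highest tumor value of 130862 TPM. In all, 6 libraries, among them nonDEN-L-WD replicate 4, carried over 1000 TPM of 8 pancreatic acinar genes in sum. Where a difference described for 1 of the 36 genes no longer passed without nonDEN-L-WD replicate 4, DEN-PT-WD replicate 7, DEN-T-WD replicate 5 or the 6 libraries with pancreatic RNA, this is said beside it.

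The sequences below come from annotation, and the data here do not measure where transcription starts. Both collagen IV chains below are read in opposite directions from starts that overlap by 22 bases at chr8:11312805-11312826 in GRCm38, shown 5′ to 3′ on the plus strand with the whole shared stretch in capitals. The other 3 are the 120 bases before the RefSeq start (build GRCm38.p6), at the coordinates given. Each is in the direction of its transcription, with TATAAA or CCAAT in capitals. Col3a1 (chr1:45311418-45311537, plus strand) is a fibrillar collagen that was higher on WD. Tgfb2 (chr1:186705990-186706109, minus strand) had the largest fold change in tumors among the 36 genes in edgeR. Lrat (chr3:82903975-82904094, minus strand) is a stellate cell gene that was lower in tumors.
Col4a1 and Col4a2: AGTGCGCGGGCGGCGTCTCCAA
Col3a1: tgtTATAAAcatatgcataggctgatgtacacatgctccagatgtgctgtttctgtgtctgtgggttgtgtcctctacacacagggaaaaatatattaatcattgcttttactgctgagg
Tgfb2: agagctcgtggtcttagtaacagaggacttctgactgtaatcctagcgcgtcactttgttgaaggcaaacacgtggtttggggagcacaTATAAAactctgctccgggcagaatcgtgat
Lrat: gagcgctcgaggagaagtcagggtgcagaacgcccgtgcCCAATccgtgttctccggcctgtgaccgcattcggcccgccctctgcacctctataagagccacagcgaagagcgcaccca
A promoter entry was found for 23 of the 36 genes. In the 250 bases before the start, read on both strands, TATAAA was found in 4 of these 23 and in 12.4% of 32851 mouse promoters, and CCAAT in 8 of the 23 and in 33.8% of all. The match in Tgfb2 began 31 bases before its start, and those of Vim and Postn began 32 and 26 bases before theirs, whereas the one in Col3a1 began 117 bases before its start.

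Levels between genes were compared in TPM, which divides by transcript length. Fn1, which encodes fibronectin and is made by hepatocytes as well as mesenchymal cells, was the highest of the 36 genes in every group, at 413 ± 65.1 TPM (SD, n = 3) in nonDEN-L-CD livers and 736 ± 211 TPM (SD, n = 6) in DEN-T-WD. Col18a1, which encodes the basement membrane collagen that hepatocytes also secrete, followed in both of these groups at 147 ± 14.2 TPM (SD, n = 3) and 194 ± 18.7 TPM (SD, n = 6). These levels were far above those of the classical fibrosis genes, since Col1a1 stood at 1.25 ± 0.284 TPM (SD, n = 3) in nonDEN-L-CD and 16.8 ± 4.36 TPM (SD, n = 6) in DEN-T-WD. Without Col18a1, the summed level of the other 14 collagen chains was 58.4 ± 8.24 TPM (SD, n = 3) in nonDEN-L-CD, 84.1 ± 26.8 (n = 4) in nonDEN-L-WD, 62.6 ± 2.22 (n = 4) in DEN-L-CD, 143 ± 26.3 (n = 8) in DEN-PT-WD and 224 ± 40.0 (n = 6) in DEN-T-WD. The ranges of the sum in DEN-PT-WD, 101 to 186 TPM, and in DEN-T-WD, 166 to 282 TPM, overlapped, and nonDEN-L-WD ran from 47.1 to 110 TPM.

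**Figure D1:**
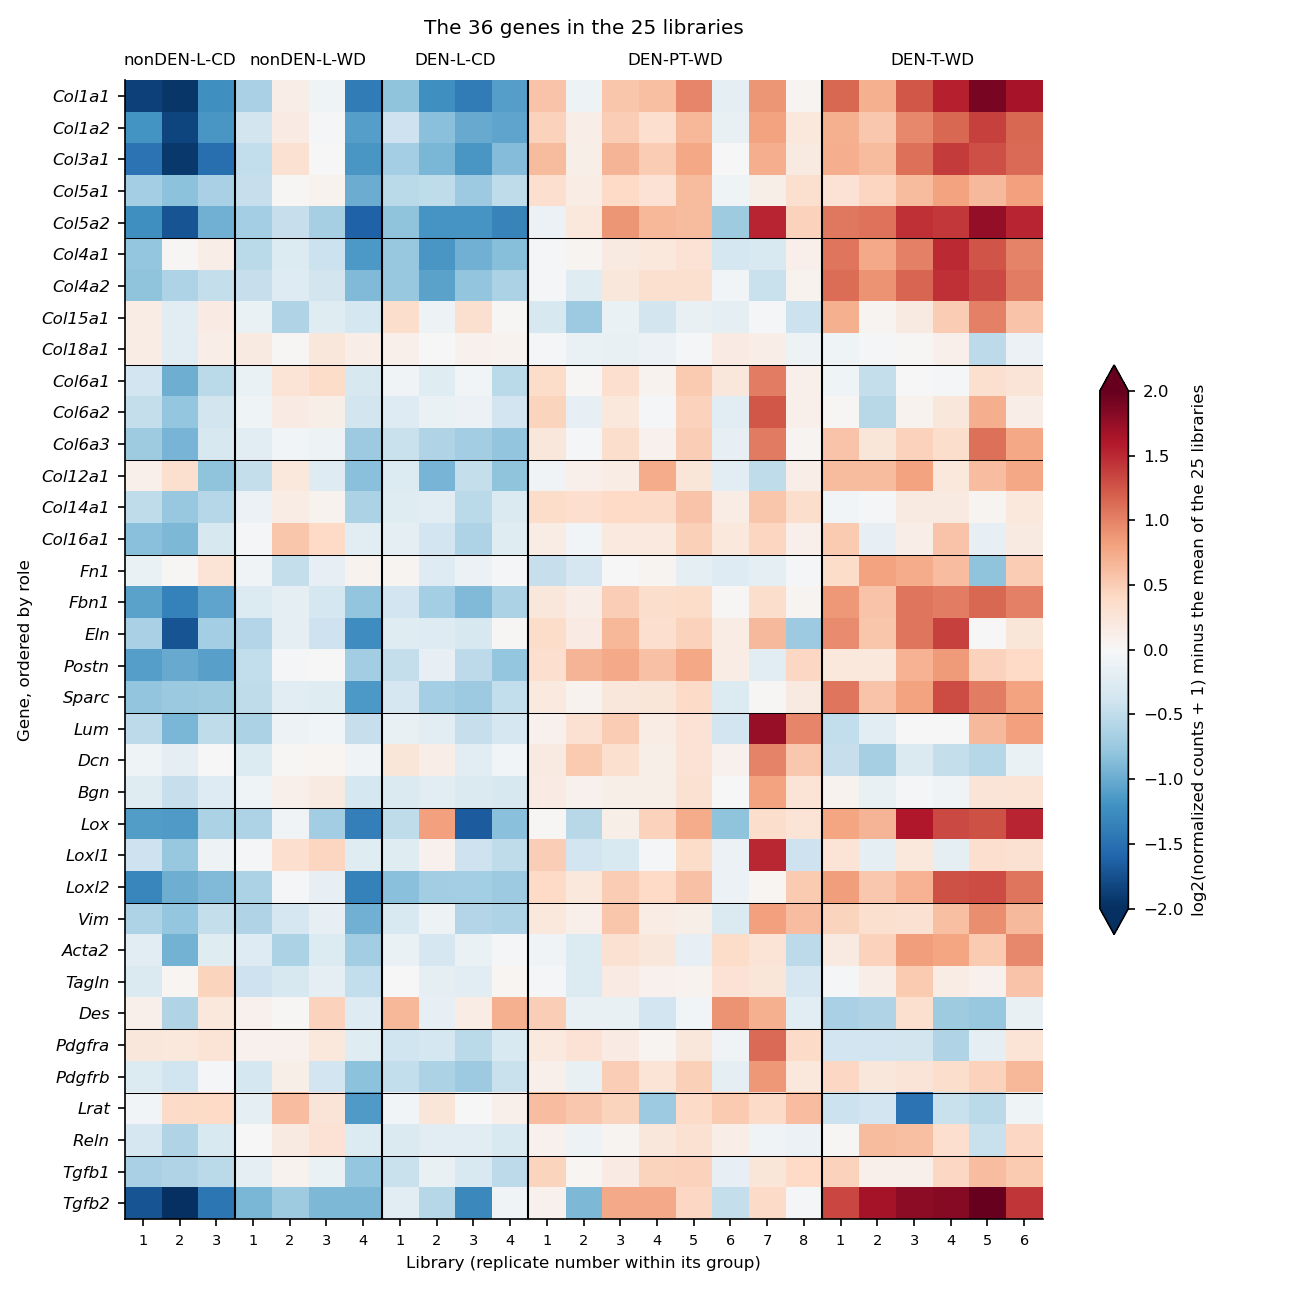
Expression of the 36 genes (rows, ordered by role and split by thin lines) in the 25 libraries (columns, grouped), as log2(normalized counts + 1) minus the mean of the 25 libraries, on a scale clipped at 2 units either way. The fibrillar collagens, Fbn1, Loxl2 and Tgfb2 run from blue in nonDEN-L-CD to red in DEN-T-WD, nonDEN-L-WD replicate 4 is blue like the CD libraries, and Dcn, Pdgfra and Lrat are paler or blue in tumors.

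Differences between groups were tested on counts with edgeR's quasi-likelihood test, and a gene was called when its Benjamini-Hochberg adjusted p over all 15625 genes was at most 0.05 and its change at least 2-fold. A gene that met the adjusted p alone is said to have passed. The share of all tested genes that met the same rule is given beside the counts as the background.

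Diet alone, in untreated liver, gave 3 called genes, all higher, of the 36 (background 3.24%), and none lower (2.04%). It gave 8 that passed higher (11.2%) and none lower (12.0%). DEN in mice on CD gave 1 called higher (2.76%) and none lower (1.93%), with 3 that passed higher (9.12%) and 2 lower (12.2%), of which none passed without nonDEN-L-CD replicate 2. The share that passed in either direction was thus near the background for diet and below it for DEN on CD.

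In peritumoral tissue the set stood further from the background. Set against untreated liver on the same diet it had 2 called higher (2.36%) and none lower (0.410%), and 18 passed higher (7.50%) and none lower (4.87%). Without nonDEN-L-WD replicate 4 the 18 were 6, and without replicate 1 of that group they were 8, when 4.20% and 6.56% of all genes passed in either direction (12.4% with all libraries). Set against DEN liver on CD it had 5 called higher (1.52%) and none lower (0.378%), and 21 passed higher (6.80%) and none lower (3.76%). The second of these differs in diet as well as in the tissue taken.

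Tumors had 4 genes called higher than in peritumoral tissue (4.81%) and none lower (3.09%), with 16 that passed higher (19.5%) and 5 lower (18.1%). They had 14 called higher than in untreated liver on WD (10.4%) and none lower (5.24%), with 23 that passed higher (25.9%) and 1 lower (23.1%). DESeq2's Wald test also called none of the 36 lower in any of the 6 comparisons, and at an unadjusted p under 0.05 edgeR gave 1, 2, 0, 1, 6 and 2 lower genes in the order above. The median log2 fold change of the 36 genes was 0.36, 0.22, 0.51, 0.70, 0.27 and 0.81, beside medians of all genes from 0.00 to 0.02. These comparisons share groups and are not independent of each other.

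Counted by groups that did not overlap, 9 of the 36 genes were higher with diet (15.6% of all tested genes) and 9 higher and 2 lower with DEN on CD (17.2% and 17.2%). Peritumoral tissue had 3 higher than untreated liver on WD (3.81%) and 18 higher than DEN liver on CD (4.36%). Tumors had 6 higher and 1 lower than peritumoral tissue (4.29% and 5.18%), and 22 higher than untreated liver on WD (15.8%). The groups of 3 and 4 samples separate more easily than the larger ones, so these shares compare with their own background only.

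On log2 TPM values the median of all genes was itself higher, by 0.04 to 0.34 over these comparisons with a pseudocount of 0.1. On that scale Dcn and Lrat were the only members to pass lower in tumor against peritumoral tissue, and no member that passed changed its sign.

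**Figure D2:**
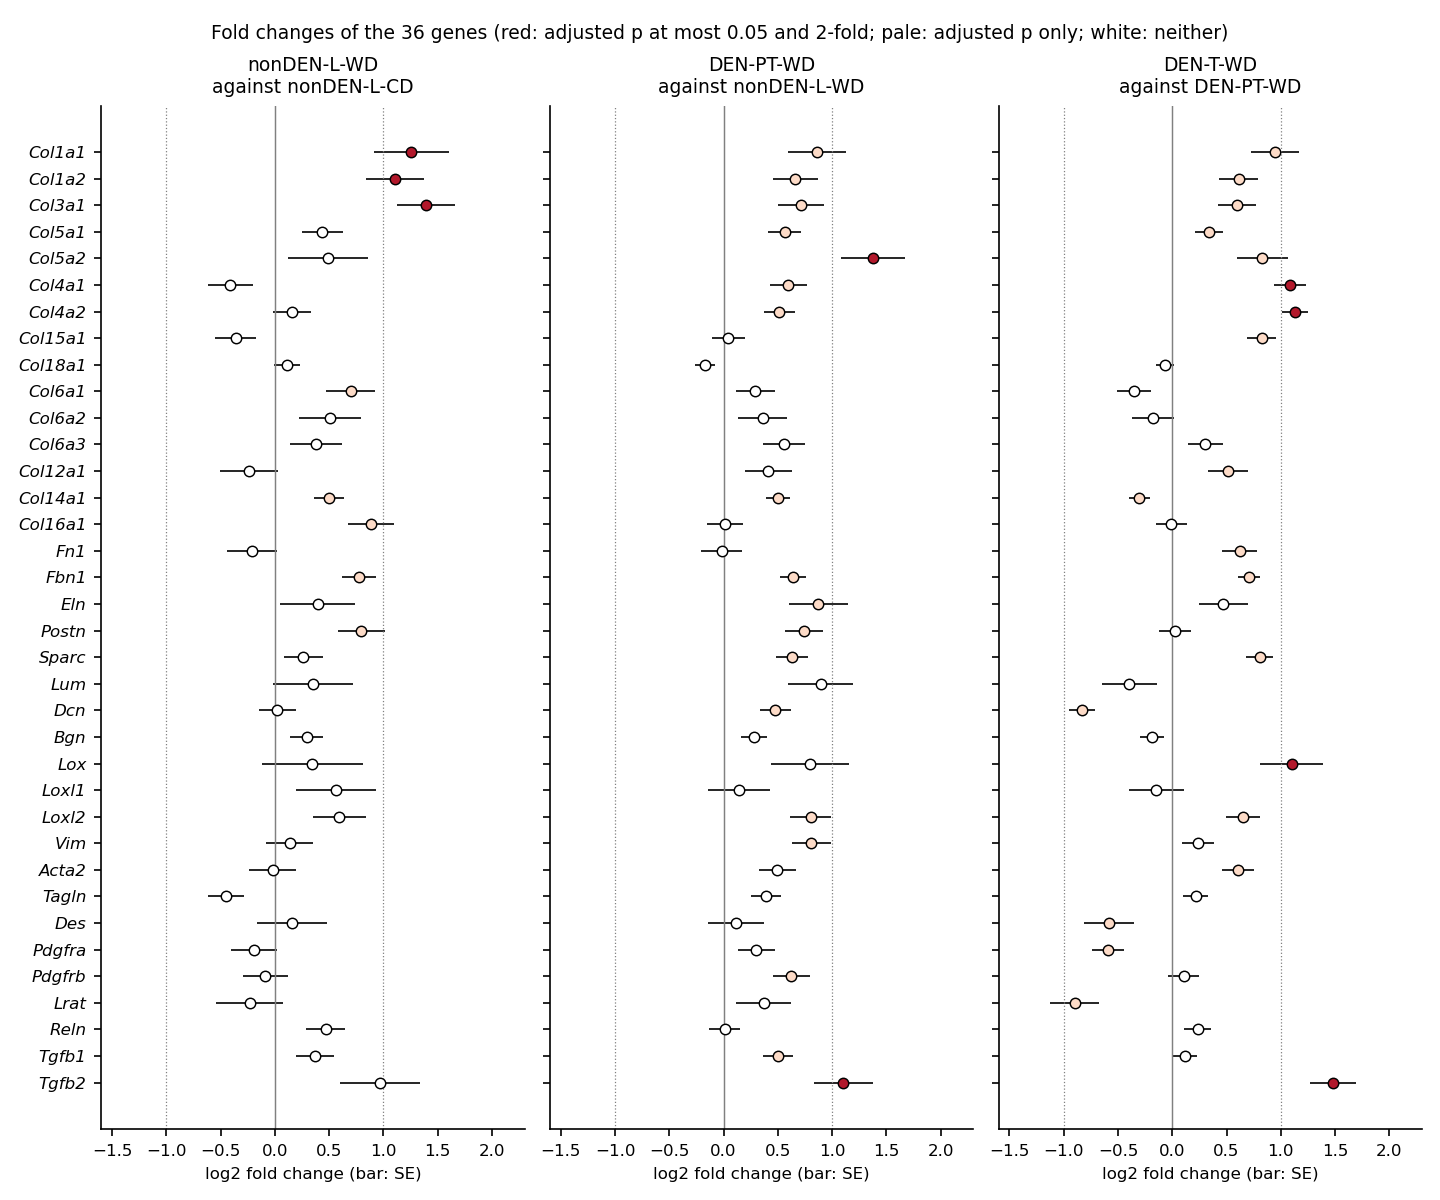
Log2 fold changes (points) and standard errors (bars) of the 36 genes for diet in untreated liver, peritumoral against untreated liver on WD, and tumor against peritumoral tissue. The 3 red points in the left panel are Col1a1, Col1a2 and Col3a1, those in the middle panel are Col5a2 and Tgfb2, and those in the right panel are Col4a1, Col4a2, Lox and Tgfb2, with Dcn, Lrat, Pdgfra, Des and Col14a1 to the left of 0.

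The fibrillar collagens form the tensile fibers of scar tissue, and 3 of the 5 measured chains were higher on WD without any carcinogen. Col1a1, the alpha1 chain of collagen I (chr11:94936224-94953042), had normalized counts of 131, 124 and 205 in the nonDEN-L-CD livers and 306, 527, 450.4 and 181 in nonDEN-L-WD. Replicate 4 of nonDEN-L-WD lay inside the CD range and the other 3 lay above it. The difference was 2.39-fold (log2 fold change 1.26, SE 0.34, adjusted p = 0.011). Without nonDEN-L-CD replicate 2, its adjusted p was 0.067 at a log2 fold change of 1.13. Col3a1, the chain of collagen III (chr1:45311538-45349706), had 585, 429 and 572 normalized counts in nonDEN-L-CD against 1164, 2009.9, 1646 and 729.9 in nonDEN-L-WD. Here even the lowest WD library lay above the highest CD library (log2 fold change 1.39, SE 0.27, adjusted p = 8.1e-04). Col1a2, the partner chain in collagen I, was higher by 1.11 (SE 0.27, adjusted p = 0.0048) on the log2 scale and fell below 2-fold, at 0.92 and 0.93, without nonDEN-L-CD replicate 2 or nonDEN-L-WD replicate 2. The minor chains Col5a1 and Col5a2, which set fibril diameter, had log2 fold changes of 0.44 and 0.49 and did not pass (adjusted p = 0.10 and 0.36).

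With DEN on CD, the mean counts of all 5 chains lay between those of the untreated CD and WD groups. Col3a1 was at 1021, 865, 729.7 and 889.6 normalized counts in DEN-L-CD, above all 3 nonDEN-L-CD libraries (log2 fold change 0.73, SE 0.26, adjusted p = 0.049), and the adjusted p rose above 0.05 when any of 6 of the 7 libraries was left out. Col1a1 was at 275, 205, 181 and 222 and did not pass (log2 fold change 0.53, SE 0.34, adjusted p = 0.29). The DEN-L-CD and nonDEN-L-CD ranges of Col1a1 overlapped from 181 to 205, and in mean level Col1a1 on CD with DEN lay below untreated liver on WD.

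Peritumoral tissue on WD had more of all 5 fibrillar chains than DEN liver on CD, 4 of them by more than 2-fold. The lowest, median and highest normalized counts of Col1a1 in DEN-PT-WD were 417, 704 and 945, all above DEN-L-CD (log2 fold change 1.59, SE 0.28, adjusted p = 0.0023). Those of Col3a1 were 1623, 2425 and 2785, again without overlap (log2 fold change 1.37, SE 0.22, adjusted p = 0.0011). Col1a2 and Col5a2 were also called, at 1.20 and 1.70 on the log2 scale, and Col5a1 passed below 2-fold at 0.85. Against untreated liver on the same diet the differences were smaller, at 0.86 (SE 0.27, adjusted p = 0.037) for Col1a1 and 0.71 (SE 0.21, adjusted p = 0.03) for Col3a1. Neither passed without nonDEN-L-WD replicate 4 (adjusted p = 0.15 and 0.13) or without the libraries with pancreatic RNA (adjusted p = 0.061 and 0.063), and Col1a1 did not pass without DEN-PT-WD replicate 7 (adjusted p = 0.055). Col5a2 was the exception. It had 136, 158, 137 and 70.6 normalized counts in nonDEN-L-WD and 133, 318 and 626 (lowest, median, highest) in DEN-PT-WD, where only the lowest library, replicate 6, overlapped the WD livers (log2 fold change 1.37, SE 0.29, adjusted p = 0.0058), and it passed with each library left out. Its neighbor Col3a1 lies 24614 bases away on the opposite strand of chromosome 1, and was higher by 1.64-fold in the same comparison against 2.59-fold for Col5a2.

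Tumors held the highest levels of fibrillar collagen in the study. Col1a1 ran at 787, 1272 and 1785 normalized counts (lowest, median, highest), overlapping the peritumoral range of 417 to 945, and was 1.93-fold higher (log2 fold change 0.95, SE 0.22, adjusted p = 0.0018). Col5a2 in tumors ran at 452, 592 and 740.0, with an overlap through DEN-PT-WD replicate 7 at 626 (log2 fold change 0.83, SE 0.23, adjusted p = 0.0074). All 5 chains passed the adjusted p in this comparison and none reached 2-fold. Without the libraries with pancreatic RNA, Col1a1 and Col3a1 still passed, while Col5a2 was at 0.50 (adjusted p = 0.068), Col1a2 at 0.46 (adjusted p = 0.068) and Col5a1 at 0.21 (adjusted p = 0.19). Col5a1 was the weakest (log2 fold change 0.34, SE 0.13, adjusted p = 0.043). It missed the threshold when any of 10 of the 14 libraries, DEN-PT-WD replicate 7 and DEN-T-WD replicate 5 among them, was left out. Against nonDEN-L-WD, where every tumor exceeded every liver for all 5 chains, the changes were 3.50-fold for Col1a1, 2.41-fold for Col1a2, 2.47-fold for Col3a1, 4.60-fold for Col5a2 and 1.86-fold for Col5a1. Col5a2 had the highest of these (log2 fold change 2.20, SE 0.31, adjusted p = 5.5e-06).

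**Figure D3:**
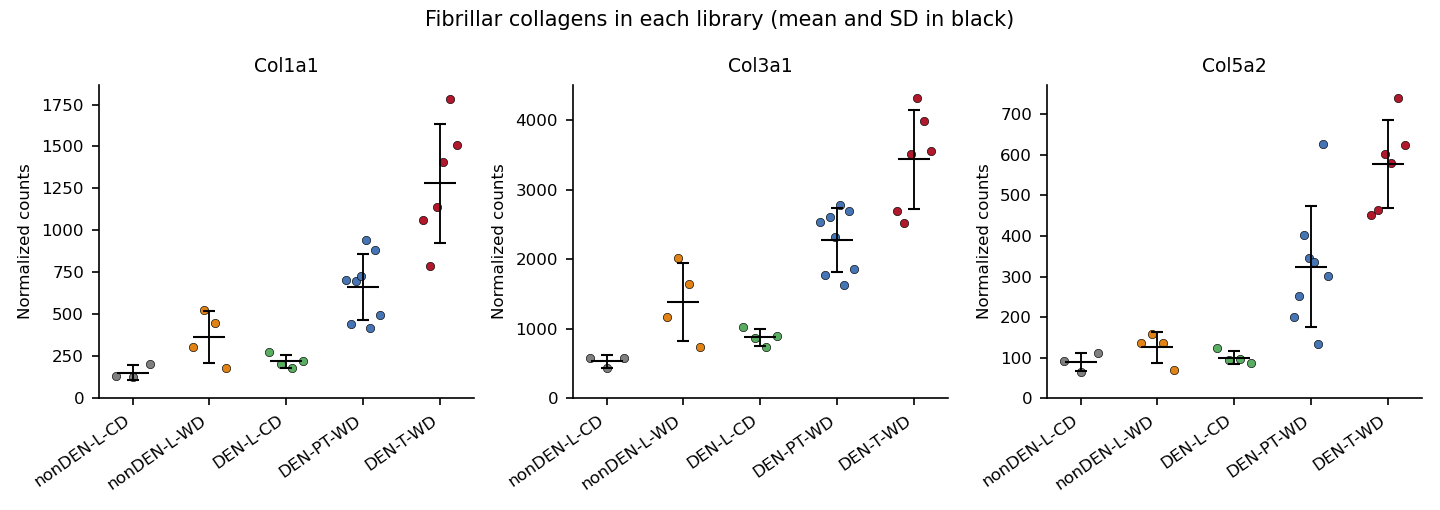
Normalized counts of Col1a1, Col3a1 and Col5a2 in each library (points, by group), with the group mean and SD in black, on linear axes from 0. For Col1a1 and Col3a1 the fourth nonDEN-L-WD point lies near the CD livers while the other 3 lie above them, and for Col5a2 the untreated and DEN-L-CD groups stay between 64.8 and 158 while peritumoral and tumor libraries spread from 133 to 740.0.

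Col4a1 and Col4a2 encode the chains that form the common collagen IV network, and both were above 2-fold in tumors against peritumoral tissue. Col4a2 had 591 to 737 normalized counts in the nonDEN-L-CD livers, 556 to 860.4 in the nonDEN-L-WD livers and 491 to 661 in DEN-L-CD, which overlap. In DEN-PT-WD the lowest, median and highest were 756, 1049.8 and 1288, and in DEN-T-WD they were 1912, 2264 and 2824, so that every tumor exceeded every peritumoral sample (log2 fold change 1.13, SE 0.12, adjusted p = 3.4e-07). Col4a1 did the same, from 1364, 1840.3 and 2123 in DEN-PT-WD to 2946, 3590.2 and 4925 in DEN-T-WD (log2 fold change 1.08, SE 0.15, adjusted p = 7.2e-06). Without DEN-T-WD replicate 4 the log2 fold change of Col4a1 was just under the 2-fold line. Against DEN-L-CD, peritumoral tissue was higher by 0.96 (SE 0.18, adjusted p = 0.0026) for Col4a1 and 0.85 (SE 0.14, adjusted p = 0.0015) for Col4a2, with no overlap for either. Diet alone gave no passing change, with -0.41 for Col4a1 and 0.16 for Col4a2 (adjusted p = 0.16 and 0.55).

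The pair parted in the untreated CD group. Col4a1 had 1014, 1775 and 1916 normalized counts in nonDEN-L-CD while Col4a2 had 591, 667 and 737. Per Col4a2 count there were 1.72, 2.66 and 2.60 Col4a1 counts in those 3 libraries, and 1.38 to 2.09 in the libraries of the other groups. In DEN-L-CD, Col4a1 was at 1028, 777, 899 and 961, each below nonDEN-L-CD replicates 2 and 3 (log2 fold change -0.78, SE 0.21, adjusted p = 0.01), a difference that missed the threshold without nonDEN-L-CD replicate 2 or replicate 3 (highest adjusted p = 0.077). Col4a2 did not pass there (log2 fold change -0.18, SE 0.17, adjusted p = 0.49). Whether the effect of DEN differed between diets was tested as an interaction, taking DEN-PT-WD minus nonDEN-L-WD against DEN-L-CD minus nonDEN-L-CD. Col4a1 was the 1 member called higher (background 1.57%), with none called lower (1.18%), and 3 members passed higher (4.65%) and none lower (3.74%). The value of Col4a1 was 1.37 (SE 0.27, adjusted p = 0.0036) in log2, and stayed between 1.20 and 1.61 over the 27 alternative settings. Pdgfra and Pdgfrb passed below 2-fold and are described with the receptors. In this test the tissue also differs, because the DEN samples on WD were peritumoral and those on CD were whole liver, and the 2 differences cannot be told apart.

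**Figure D4:**
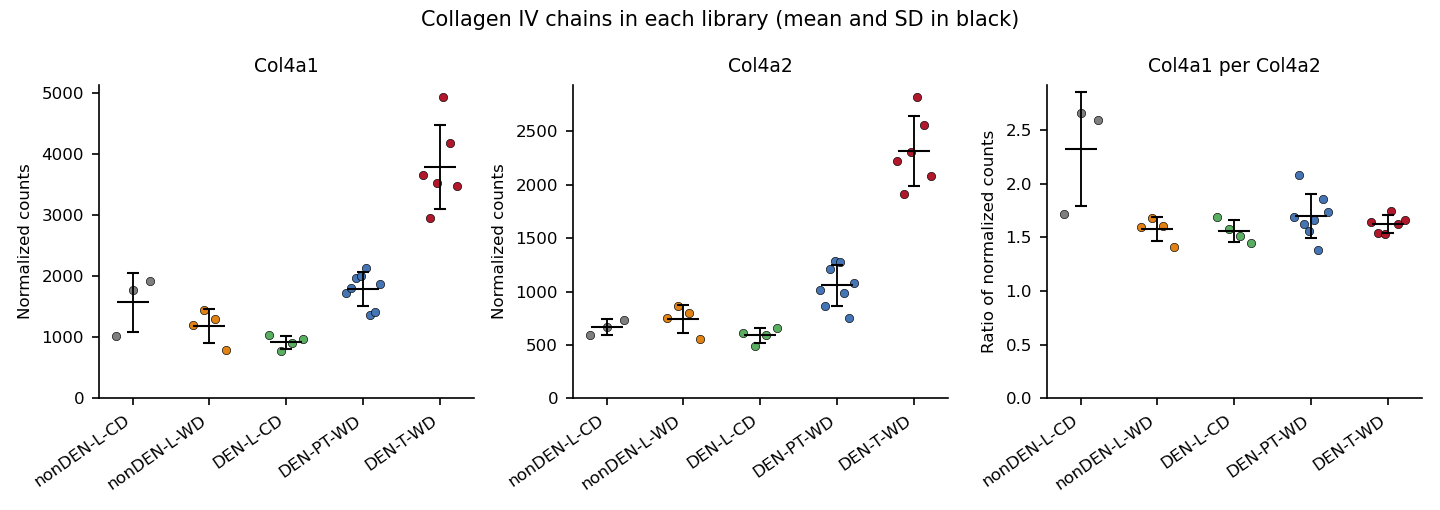
Normalized counts of Col4a1 and Col4a2 in each library (points), and the ratio of Col4a1 to Col4a2 counts, with group means and SDs in black, on linear axes from 0. Tumors lie above all other libraries for both genes, and the ratio panel shows 2 nonDEN-L-CD libraries, at 2.60 and 2.66, above the 1.38 to 2.09 of the libraries of the other groups.

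The other 2 basement membrane collagens carry endostatin-type ends. Col15a1 had 175 to 241 normalized counts in nonDEN-L-WD, 159 to 259 in DEN-PT-WD and 275, 385 and 532 (lowest, median, highest) in DEN-T-WD, where all tumors were above all peritumoral samples (log2 fold change 0.82, SE 0.13, adjusted p = 4.4e-05). The CD livers reached further into the tumor range, up to 337 in DEN-L-CD. Col18a1 passed in no comparison, and its log2 fold changes lay between -0.24 (SE 0.10, adjusted p = 0.052, DEN-T-WD against nonDEN-L-WD) and 0.11 (SE 0.12, adjusted p = 0.54, diet in untreated liver). DEN-T-WD replicate 5, the tumor with the low hepatocyte gene level, had the lowest Col18a1 of all 25 libraries at 9818 normalized counts, against 13143 to 15140.0 in the other tumors. The same library was lowest for Fn1.

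Collagen VI, which forms beaded filaments around cells, and the fibril-associated collagens XII, XIV and XVI gave smaller changes. Col6a3 was 297 to 474 in nonDEN-L-WD, 439 to 1013 in DEN-PT-WD and 579.7 to 1051 in DEN-T-WD, and passed for tumor against nonDEN-L-WD (log2 fold change 0.87, SE 0.20, adjusted p = 0.0013) and for peritumoral tissue against DEN-L-CD (log2 fold change 0.94, SE 0.20, adjusted p = 0.0059). Col6a1 and Col6a2, which lie 85161 bases apart on chromosome 10, did not pass in tumor against peritumoral tissue, at -0.35 (SE 0.16, adjusted p = 0.083) and -0.18 (SE 0.19, adjusted p = 0.51). In all 3 chains DEN-PT-WD replicate 7 was the highest peritumoral library, at 548, 441 and 1013. Col14a1 had 1677, 1406 and 1603 normalized counts in the nonDEN-L-CD livers, 1527 to 2621 in nonDEN-L-WD, 2628, 3083 and 3538 (lowest, median, highest) in DEN-PT-WD and 2279, 2578 and 2735 in DEN-T-WD. It was higher in peritumoral tissue than in either liver group (0.50 against nonDEN-L-WD and 0.71 against DEN-L-CD, with no overlap in either) and then lower in tumors (log2 fold change -0.30, SE 0.10, adjusted p = 0.015). Col12a1 passed in the opposite direction at 0.51 (SE 0.18, adjusted p = 0.031), though not when any of 6 libraries, DEN-PT-WD replicate 7 among them, or those with pancreatic RNA were left out, and Col16a1 was higher on WD in untreated liver (log2 fold change 0.88, SE 0.21, adjusted p = 0.0048) with no further difference to peritumoral tissue (0.01) or from there to tumors (-0.01).

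Of the glycoproteins and elastic fiber genes, Fbn1, the microfibril protein that binds latent TGF-beta, gave the steadiest order. It had 117, 96.6 and 118 normalized counts in the nonDEN-L-CD livers, 189, 154, 133 and 159 in DEN-L-CD, 203, 217, 194 and 142 in nonDEN-L-WD, 251, 303 and 346 (lowest, median, highest) in DEN-PT-WD and 367, 499 and 549.7 in DEN-T-WD. The DEN-L-CD and nonDEN-L-WD ranges overlapped, and every other step was without overlap. Fbn1 passed in all 6 comparisons, at 0.78 for diet, 0.52 for DEN on CD, 0.64 and 0.89 for peritumoral tissue and 0.70 for tumor against peritumoral tissue, and reached 2-fold in tumor against nonDEN-L-WD (log2 fold change 1.35, SE 0.13, adjusted p = 3.8e-08). Gene models on the opposite strand share 20.1% of its exonic positions, and whether counting used the strand is not given in the sources used here. Sparc, a collagen-binding glycoprotein, was at 886 to 1674 in nonDEN-L-WD, 1618, 2232 and 2568 (lowest, median, highest) in DEN-PT-WD and 2899, 3701 and 4831 in DEN-T-WD, with no overlap between the last 2 groups (log2 fold change 0.81, SE 0.13, adjusted p = 3.5e-05). Diet alone did not move it past the threshold (0.26, adjusted p = 0.32).

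Postn, the periostin of activated fibroblasts, had 226, 242 and 229.9 normalized counts in the nonDEN-L-CD livers and 347, 477, 491 and 299 in nonDEN-L-WD, all WD libraries being higher (log2 fold change 0.80, SE 0.22, adjusted p = 0.011). It was higher again in DEN-PT-WD (log2 fold change 0.74, SE 0.17, adjusted p = 0.0093), though without nonDEN-L-WD replicate 4 this was 0.62 with an adjusted p of 0.055, and without the libraries with pancreatic RNA 0.66 with an adjusted p of 0.060. Postn did not pass between tumor and peritumoral tissue (log2 fold change 0.02, SE 0.15, adjusted p = 0.91, 95% interval of the log2 change from -0.26 to 0.31). Eln, which encodes elastin, reached 2-fold only in tumor against nonDEN-L-WD (log2 fold change 1.34, SE 0.29, adjusted p = 5.3e-04) and ran at 59.1 to 152 in tumors. Fn1 was unlike the rest in passing only with tumors, at 0.62 (SE 0.16, adjusted p = 0.0046) against peritumoral tissue and 0.60 (SE 0.20, adjusted p = 0.016) against nonDEN-L-WD. The other 5 tumors had 66146 to 88923 normalized counts and replicate 5 had 29160.1, below every peritumoral library. Without replicate 5 the log2 fold changes of Fn1 were 0.78 and 0.76. Without the libraries with pancreatic RNA the change against peritumoral tissue was 0.51 and did not pass (adjusted p = 0.096), and without nonDEN-L-WD replicate 2 the change against nonDEN-L-WD did not pass (adjusted p = 0.063).

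The small leucine-rich proteoglycans bind collagen fibrils and growth factors, and none passed as higher in tumors than in the tissue beside them. Dcn, which encodes decorin, an inhibitor of TGF-beta, had 4945 to 5603 normalized counts in the nonDEN-L-CD livers, 4661 to 5733 in the nonDEN-L-WD livers and 4840.5 to 6610.5 in DEN-L-CD. The lowest, median and highest values were 5935, 6919.6 and 11159 in DEN-PT-WD and 3517, 4035 and 5137 in DEN-T-WD. Each tumor lay below each peritumoral library and the change was 1.78-fold downward (log2 fold change -0.83, SE 0.12, adjusted p = 1.9e-05), which kept its direction and its adjusted p with each library left out in turn. Dcn fell in tumors while the fibrillar collagens, whose fibrils it coats, rose. Lum, which lies 46984 bases away on chromosome 10, ran at 325 to 1416 in peritumoral tissue and 301 to 747 in tumors and did not pass (log2 fold change -0.39, SE 0.25, adjusted p = 0.24). Bgn, on chromosome X, had 2549 to 4389 and 2286 to 3051 in the same groups (log2 fold change -0.19, SE 0.11, adjusted p = 0.18). DEN-PT-WD replicate 7 was the highest of its group for all 3, at 11159, 1416 and 4389, and had the highest summed level of 10 portal fibroblast genes in that group, 85.4 TPM against at most 57.3 TPM in the other 7. Its 8 hepatocyte genes summed to 47681 TPM, the lowest of that group, against 59335 to 73372 TPM. The part of either in the result was not tested.

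The lysyl oxidases cross-link collagen and elastin. Loxl2 had 76.3, 95.5 and 102 normalized counts in the nonDEN-L-CD livers, 106, 117, 118 and 115 in DEN-L-CD, 174, 251 and 285 (lowest, median, highest) in DEN-PT-WD and 278, 370.2 and 472 in DEN-T-WD. It was called in peritumoral tissue against DEN-L-CD (log2 fold change 1.08, SE 0.20, adjusted p = 0.0026) and in tumor against nonDEN-L-WD (log2 fold change 1.45, SE 0.20, adjusted p = 4.3e-06), and passed below 2-fold in tumor against peritumoral tissue (0.65). Diet alone did not pass for Loxl2 (0.59, adjusted p = 0.079). Lox itself was a low gene, with 10.5 to 27.1 normalized counts in nonDEN-L-WD, 16.0 to 48.8 in DEN-PT-WD and 46.3 to 88.8 in DEN-T-WD. It was called in tumor against peritumoral tissue (log2 fold change 1.10, SE 0.29, adjusted p = 0.0045), and without the 6 libraries that carried pancreatic RNA it was at 0.78 and no longer 2-fold. Loxl1 did not pass anywhere, and its tumor range of 39.7 to 56.9 lay inside the peritumoral range of 33.5 to 130.2.

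Among cytoskeletal genes, Vim and Acta2 were called in tumors against nonDEN-L-WD. Acta2, the smooth muscle actin that marks myofibroblasts, had 203, 158, 203 and 151 normalized counts in nonDEN-L-WD, 169, 259 and 314 (lowest, median, highest) in DEN-PT-WD and 277, 387 and 479 in DEN-T-WD, and was 1.52-fold higher in tumor than in peritumoral tissue (log2 fold change 0.61, SE 0.15, adjusted p = 0.0022). Diet and DEN on CD left it at -0.02 and 0.28, neither passing (adjusted p = 0.96 and 0.38). The livers in which collagens I and III were higher on WD thus had Acta2 inside the range of the untreated CD livers, 126 to 210.5. Vim, which encodes the intermediate filament vimentin, passed already in peritumoral tissue (log2 fold change 0.81, SE 0.18, adjusted p = 0.0066) and did not pass from there to tumors (0.23, adjusted p = 0.23). Its 2-fold call in tumor against nonDEN-L-WD (1.04) fell to 0.91 without nonDEN-L-WD replicate 4, to 0.95 without DEN-T-WD replicate 5 and to 0.90 without the libraries with pancreatic RNA, and that of Acta2 to 0.96 without the last. Tagln shares 67.9% of its exonic positions with genes on the opposite strand, chiefly Pcsk7, and is uncertain for that reason (0.61 in tumor against nonDEN-L-WD, adjusted p = 0.0014). Des, the desmin of stellate cells and muscle, went down in tumors, at 82.4 to 175 normalized counts against 106 to 259.9 (log2 fold change -0.58, SE 0.23, adjusted p = 0.047). It no longer passed when any of 8 of the 14 libraries, or those with pancreatic RNA together, were left out. DEN-PT-WD replicate 7 and DEN-T-WD replicate 5 were among the 8.

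The receptors for PDGF both passed higher in peritumoral tissue than in DEN-L-CD, and Pdgfra alone passed lower in tumors. Pdgfra had 298, 294 and 308 normalized counts in the nonDEN-L-CD livers and 192, 199, 174 and 206 in DEN-L-CD, where all DEN libraries were lower (log2 fold change -0.64, SE 0.21, adjusted p = 0.036), a pass that was lost when any of 6 of the 7 libraries, or those with pancreatic RNA together, were left out. On WD the untreated livers had 270.0, 268, 296 and 215 and the peritumoral samples had 242, 295 and 556 (lowest, median, highest), where the difference with DEN had the opposite sign and did not pass (0.30, adjusted p = 0.24). The interaction was 0.94 (SE 0.27, adjusted p = 0.036), and the adjusted p rose above 0.05 when any of 7 of the 19 libraries, nonDEN-L-WD replicate 4 among them, was left out. Peritumoral tissue was higher than DEN-L-CD without overlap (log2 fold change 0.75, SE 0.18, adjusted p = 0.011). Tumors were lower again, at 168, 196 and 308 (log2 fold change -0.59, SE 0.15, adjusted p = 0.0036). Pdgfrb, which drives stellate cell proliferation, had 255 to 526 in peritumoral tissue and 336 to 459 in tumors, with no passing difference between them (log2 fold change 0.10, SE 0.14, adjusted p = 0.61). It was higher in peritumoral tissue than in DEN-L-CD without overlap (log2 fold change 0.87, SE 0.17, adjusted p = 0.004), and its interaction was 0.96 (SE 0.27, adjusted p = 0.028), which no longer passed when any of 5 of the 19 libraries, nonDEN-L-WD replicate 4 among them, was left out (highest adjusted p = 0.093).

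The markers of stellate cells themselves did not follow the collagens. Lrat, which makes the retinyl esters they store, had 704, 955 and 964 normalized counts in the nonDEN-L-CD livers, 641, 1123, 875 and 333 in the nonDEN-L-WD livers and 703, 862, 737 and 787 in DEN-L-CD. The lowest, median and highest values were 441, 1020.2 and 1121 in DEN-PT-WD and 262, 541 and 686 in DEN-T-WD. The groups overlapped only through DEN-PT-WD replicate 4, at 441, and the change was 1.87-fold downward (log2 fold change -0.90, SE 0.23, adjusted p = 0.0031). Without that library the log2 change was -1.01, past 2-fold. Reln, which encodes the secreted protein reelin, did not pass in that comparison (log2 fold change 0.24, SE 0.12, adjusted p = 0.15) or in any other, and was at 2096 to 4427 in tumors.

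A within-library ratio showed the same contrast, and it was chosen after the values were seen, so it is given with no test. For each Lrat count there were 0.130 to 0.213 Col1a1 counts in nonDEN-L-CD, 0.469 to 0.544 in nonDEN-L-WD, 0.238 to 0.391 in DEN-L-CD, 0.397 to 1.65 in DEN-PT-WD and 1.41 to 4.34 in DEN-T-WD. On this scale nonDEN-L-WD replicate 4, low for both genes, fell with the rest of its group and clear of all 7 CD libraries. The peritumoral library at 1.65 was replicate 4, the one with little Lrat.

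Another 14 genes of quiescent stellate cells were counted beside Lrat. In tumor against peritumoral tissue 10 of 14 passed lower and 1 higher (background 18.1% lower and 19.5% higher), and the 14 genes' median log2 fold change was -0.70 beside 0.01 for all genes. Ecm1, an extracellular matrix protein of quiescent stellate cells, was at 795 ± 152 normalized counts in DEN-T-WD (SD, n = 6) and 1731 ± 205 in DEN-PT-WD (SD, n = 8), and Vipr1, a receptor for a gut peptide, was at 344 ± 66.5 and 740.1 ± 105. For diet and for DEN on CD no gene of the 14 passed in edgeR, and the medians were 0.16 and 0.11. In TPM the 14 genes summed to 211 to 260.3 in nonDEN-L-CD, 249.7 to 325 in nonDEN-L-WD, 236 to 269.5 in DEN-L-CD, 280.1 to 402 in DEN-PT-WD and 265 to 315 in DEN-T-WD, with Tmem56 alone at 93.0 to 183 TPM in DEN-PT-WD and 124 to 169 TPM in DEN-T-WD, so the sums overlap.

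**Figure D5:**
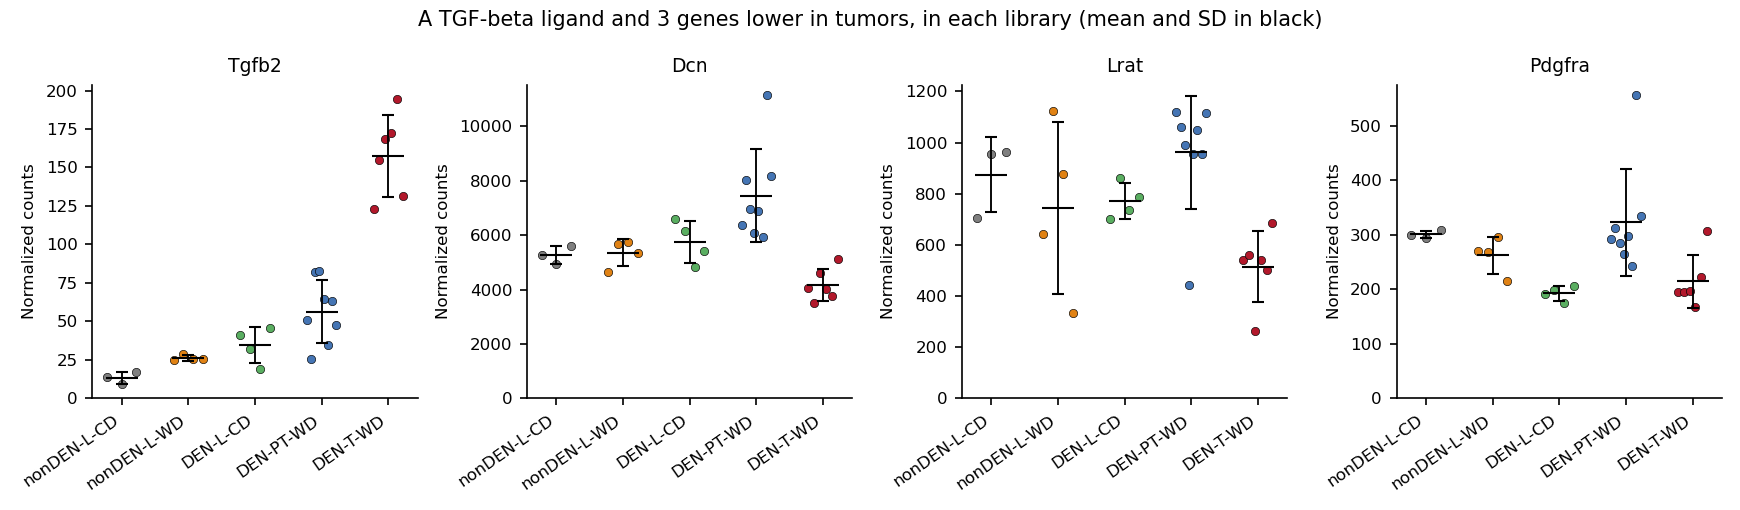
Normalized counts of Tgfb2, Dcn, Lrat and Pdgfra in each library (points), with group means and SDs in black, on linear axes from 0. Tumor points lie above all other points for Tgfb2 and below all peritumoral points for Dcn, while single peritumoral libraries stand out for Lrat (replicate 4, at 441) and Pdgfra (replicate 7, at 556).

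Of the TGF-beta ligands, Tgfb2 had the largest fold change of the 36 genes in both tumor comparisons in edgeR, whereas Col5a2 exceeded it in both peritumoral comparisons. On log2(TPM + 1), where low genes are compressed, Tgfb2 was at 0.89 in tumor against peritumoral tissue and Col1a1 at 1.03. Tgfb2 had 13.9, 9.10 and 17.0 normalized counts in the nonDEN-L-CD livers, 25.1, 29.0, 25.5 and 25.3 in the nonDEN-L-WD livers and 40.9, 32.2, 19.2 and 45.9 in DEN-L-CD. It ran at 25.3, 57.2 and 82.6 (lowest, median, highest) in DEN-PT-WD and 123, 162 and 195 in DEN-T-WD, and no tumor overlapped any other library. Tumors were 2.79-fold above peritumoral tissue (log2 fold change 1.48, SE 0.21, adjusted p = 1.5e-05) and 5.99-fold above nonDEN-L-WD (log2 fold change 2.58, SE 0.29, adjusted p = 3.1e-07). At the low end of its range the smaller steps were less sure. DEN on CD gave 1.37 (SE 0.37, adjusted p = 0.01), with an adjusted p of 0.075 without nonDEN-L-CD replicate 2, and on log2 TPM values with limma neither this step nor peritumoral tissue against nonDEN-L-WD (1.10 in edgeR) passed. Tgfb1, the main profibrotic ligand, was at 168 to 181 normalized counts in the nonDEN-L-CD livers, 154 to 276 in nonDEN-L-WD, 236 to 363 in DEN-PT-WD and 282 to 405 in DEN-T-WD. It passed below 2-fold in peritumoral tissue (log2 fold change 0.62, SE 0.14, adjusted p = 0.0083 against DEN-L-CD) and did not pass from there to tumors (0.11, adjusted p = 0.49).

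Among 25 other genes of TGF-beta and PDGF signaling, 10 passed higher and 2 lower in tumor against peritumoral tissue (background 19.5% and 18.1%), and 3 were called higher (4.81%) and none lower (3.09%). Of those called, Thbs1, a thrombospondin that activates latent TGF-beta, had 815 ± 229 normalized counts in tumors (SD, n = 6) against 379 ± 128 in peritumoral tissue (SD, n = 8), and Pdgfb, the ligand of the PDGF receptors, had 115 ± 28.0 against 56.8 ± 9.24. On diet alone 3 of the 25 were called higher (3.24%) and none lower (2.04%), each below the 100 normalized counts required for naming a gene. Of 17 tested genes for collagen processing and cross-linking, Adamts14, a procollagen peptidase, and Loxl4 were called higher in tumors (log2 fold change 2.19, SE 0.36, adjusted p = 6.4e-05, and log2 fold change 1.58, SE 0.29, adjusted p = 2.3e-04), while 8 of the 17 passed higher (19.5%) and 2 lower (18.1%).

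Of 15 basement membrane genes other than the collagens, 8 passed higher (19.5%) and 3 lower (18.1%) in tumor against peritumoral tissue, the lower share being near the background. Nid1, which links laminin to collagen IV, was at 7178 ± 2576 normalized counts in tumors (SD, n = 6) and 2048 ± 1009 in peritumoral tissue (SD, n = 8), and Lama5, a laminin chain, was at 577 ± 99.8 and 178 ± 67.9. Lamb3, a chain of another laminin, was lower, at 82.5 ± 19.8 against 168 ± 70.5. Of 29 collagen genes outside the 36, 16 could be tested, and in tumor against peritumoral tissue 5 were called higher (4.81%), among them Col4a3, Col4a4, Col4a5 and Col8a1, and 1 lower (3.09%). Against nonDEN-L-WD, 5 of the 16 were called higher (10.4%) and 4 lower (5.24%). Col4a3 and Col4a4, further chains of collagen IV, were higher (log2 fold change 2.26, SE 0.64, adjusted p = 0.0079, and log2 fold change 1.80, SE 0.48, adjusted p = 0.0051). The fibrillar Col5a3 was among the 4, at 184 ± 51.3 against 679.6 ± 80.9 normalized counts (SD, n = 6 and n = 4), opposite to Col5a1 and Col5a2. On WD without DEN, 4 of the 16 were called higher (3.24%) and 1 lower (2.04%), and Col27a1 was the one with over 100 normalized counts, at 664 ± 169.5 against 305 ± 55.9 (SD, n = 4 and n = 3), and it was also called with DEN on CD, at 621 ± 97.2 (SD, n = 4).

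Markers of other matrix-producing or surface cells gave these values beside the results above. Of 9 tested portal fibroblast genes 2 were called higher (4.81%) and 2 lower (3.09%) in tumor against peritumoral tissue. Entpd2 and Cd34, the latter also counted among the endothelial genes, were higher and Dpt was lower. Gli1, another portal fibroblast gene, was listed at 0 in some libraries and was at most 0.12 TPM. The list summed to 23.2 to 32.1 TPM in nonDEN-L-CD, 23.9 to 40.4 in nonDEN-L-WD, 30.9 to 37.6 in DEN-L-CD, 42.8 to 85.4 in DEN-PT-WD and 54.9 to 78.8 in DEN-T-WD. Of 6 tested smooth muscle genes 1 passed higher (19.5%), under 2-fold, with summed levels of 5.12 to 12.2 TPM in DEN-PT-WD and 8.17 to 11.5 TPM in DEN-T-WD and Myocd at most 0.20 TPM. Of 6 mesothelial and capsule genes 5 passed lower (18.1%) in tumor against peritumoral tissue, and they summed to 4.10 to 11.1 TPM and 2.91 to 5.01 TPM. The bile duct list summed to 75.3 to 326 TPM in DEN-PT-WD and 388 to 836 TPM in DEN-T-WD, and 2 of its 6 genes were called higher (4.81%) and none lower (3.09%). These were Spp1, which is also made by tumor and immune cells and made up nearly all of the sum at 60.9 to 317 TPM and 372 to 817 TPM, and Sox9, a transcription factor of bile ducts (log2 fold change 1.38, SE 0.22, adjusted p = 4.6e-05), while Krt19 was at 1.87 to 6.21 TPM and 0.800 to 4.60 TPM. The part of each of these cell types in the collagen results was not tested.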

How the data were processed

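Liver, peritumoral and tumor RNA was sequenced by the authors as single-end libraries after poly(A) capture. Reads were aligned with STAR and quantified with RSEM on GRCm38. Versions of these tools, the annotation release and the strand setting are not given in the sources used here. The deposited gene tables hold expected counts and TPM as RSEM wrote them, per the file headers, and also FPKM, which was not used. Expected counts were rounded to whole numbers (6.3% were not whole). No sample was left out of the main tests.

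Groups were taken from the sample labels. Counts were normalized by TMM and tested with edgeR 4.0.16 (quasi-likelihood, one model over the 5 groups, filterByExpr with a minimum count of 10) in R 4.3.3, with Benjamini-Hochberg adjustment over 15625 genes. Normalized counts are counts scaled by TMM library size and are compared within a gene only. The interaction is the difference of the DEN effect between diets. A gene was called at an adjusted p of at most 0.05 and 2-fold. Tables and figures were made with Python 3.11.15, pandas 2.3.3, NumPy 2.4.6 and Matplotlib 3.10.9. The test was first tried on simulated counts with known changes.

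The 36 genes and the comparison lists were chosen with earlier results of these data known. All 36 genes could be named. Of each list up to 4 called genes per comparison were named, by largest change, provided the higher group averaged 100 or more normalized counts. Alternatives were DESeq2 1.42.0 (Wald test, and its size factors), no filter on low counts, only the compared groups, a replicate block, no minimum fold change, limma 3.58.1 on log2(TPM + 1) and log2(TPM + 0.1), each library left out in turn, and, chosen after seeing the data, all libraries with over 1000 TPM of pancreatic RNA left out. The depth, 21530083 to 38074411 counts per library, limits low genes such as Lox and Tgfb2. No library pair was a duplicate, since the smallest chi-square per gene within a group was 29.1 over 58 pairs. Some genes of the other lists are not reported here by name.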

Additional observations from a re-analysis of the deposited data

Results flagged for a closer look

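Among 144 sets of values (36 genes in the 4 groups of 4 to 8 samples), 12 had 1 library far from the others of its group, where chance gives about 1 in 20. DEN-PT-WD replicate 7 accounted for 8 of them. It had the highest peritumoral normalized counts of Col6a1 (548, next 389), Col6a2 (441, next 257), Col6a3 (1013, next 692), Lum (1416, next 831), Dcn (11159, next 8165), Bgn (4389, next 3118), Loxl1 (130.2, next 63.4) and Pdgfra (556, next 333). These are genes of collagen VI, the small proteoglycans, a cross-linking enzyme and a fibroblast receptor, while the same library had 756 counts of Col4a2, the lowest of its group. Its portal fibroblast list summed to 85.4 TPM, against at most 57.3 TPM in the other 7, and its 8 hepatocyte genes to 47681 TPM, against 59335 to 73372 TPM. The part of either in these values was not tested.

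The other 4 stood alone. Col5a1 was lowest in DEN-L-CD replicate 3 (173, next 198), Col12a1 in DEN-T-WD replicate 4 (185, next 246) and Lrat in DEN-PT-WD replicate 4 (441, next 955). Tgfb2 was highest in nonDEN-L-WD replicate 2 (29.0, next 25.5), a gap of few counts.

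The effect of DEN differed between diets by the interaction test for Col4a1 (1.37 on the log2 scale), Pdgfrb (0.96) and Pdgfra (0.94). Col4a1 passed lower with DEN on CD and higher in peritumoral tissue on WD (-0.78 and 0.59). Pdgfra passed lower on CD (-0.64) and did not pass on WD (0.30), and Pdgfrb did not pass on CD (-0.34) and passed higher on WD (0.62). Without nonDEN-L-WD replicate 4 neither Col4a1 nor Pdgfrb passed on WD, and Col4a1 did not pass there without the libraries with pancreatic RNA (adjusted p = 0.10). The tissue taken differed along with the diet, and the 2 cannot be told apart.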

How the results depend on the processing

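Called members, in the order diet, DEN on CD, peritumoral against untreated liver on WD, peritumoral against DEN liver on CD, tumor against peritumoral tissue, tumor against untreated liver on WD, and interaction, numbered 3, 1, 2, 5, 4, 14 and 1. With no minimum fold change they numbered 8, 5, 18, 21, 21, 24 and 3. With limma on log2(TPM + 1) diet gave 1, DEN on CD 0 (4 at an unadjusted p under 0.05, and 1 by DESeq2) and peritumoral against untreated liver on WD 0 (28 unadjusted, and 2 by DESeq2). The unadjusted counts here carry no fold threshold. In the last of these limma fits 22 members passed the adjusted p, none of them by 2-fold. With limma on log2(TPM + 0.1) DEN on CD gave 0 (8 unadjusted), peritumoral tissue against DEN liver on CD 13 and the interaction 2. Without the libraries with pancreatic RNA, an alternative chosen after seeing the data, peritumoral tissue against DEN liver on CD gave 9 and the interaction 2. The cause of these shifts was not tested.

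Leaving out each library in turn gave 1 to 4, 0 to 2, 2 to 4, 5 to 7, 3 to 6, 13 to 16 and 1 to 3 called members. Of the 100 cases in which a member passed the adjusted p, 69 passed in every such fit. Over the members' fold changes no direction of a called or passed value reversed, and over all settings 13 of the 30 calls were lost in at least 1 setting, 22 losses in all, while values that were not calls became calls 65 times. Those lost with limma on log2(TPM + 1) include Col1a1 and Col1a2 for diet, Tgfb2 in tumor against peritumoral tissue, and Lox and Eln in tumor against untreated liver on WD.

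The labels give replicate numbers in every group. Fits with the replicate block called 3, 1, 3, 7, 5, 14 and 1 members, and 11 instead of 18 passed in peritumoral against untreated liver on WD. Same-numbered tumor and peritumoral samples correlated at -0.23 to 0.34 in their deviations from the group means, mean 0.07 over 6 pairs. Differently numbered samples were not compared, so this cannot tell whether the numbers pair the samples.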

Other observations

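Other gene lists counted beside the 36 genes gave the following values, in edgeR with the same rules. Of 8 tested genes of activated fibroblasts outside the 36, 2 were called higher in peritumoral tissue than in untreated liver on WD (2.36% of all genes) and none lower. Among them was Tnc, which encodes the matrix protein tenascin-C (log2 fold change 1.16, SE 0.27, adjusted p = 0.0092). Ccn1, a secreted matricellular protein, was called with diet alone, at 350.4 ± 109 normalized counts on WD (SD, n = 4) and 117 ± 58.3 on CD (SD, n = 3). Of 12 tested genes of elastic fibers and small proteoglycans 4 passed lower in tumor against peritumoral tissue (18.1% of all genes) and none higher (19.5%). Omd, the proteoglycan osteomodulin, was called there at 109 ± 53.1 in tumors (SD, n = 6) against 229.7 ± 63.0 beside them (SD, n = 8), and it was called higher with diet in untreated liver, at 318 ± 12.6 (SD, n = 4) against 107 ± 30.4 (SD, n = 3).

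Sinusoidal and vascular endothelial genes passed higher in 5 of 8 cases in peritumoral tissue against untreated liver on WD (7.50% of all genes), among them Lyve1, a receptor of sinusoidal endothelium, at 634 ± 89.5 (SD, n = 8) against 297 ± 46.1 (SD, n = 4). Macrophage and Kupffer cell genes also passed higher in 5 of 8 there, with Gpnmb at 545 ± 318 (SD, n = 8) against 131 ± 160 (SD, n = 4). Clec4f, a receptor restricted to Kupffer cells, was lower in tumors, at 1218 ± 298 (SD, n = 6) against 2505 ± 530 (SD, n = 8). Of 8 hepatocyte genes 2 passed higher (19.5%) and 4 lower (18.1%) in tumor against peritumoral tissue. Of 7 T and B cell genes 3 were called higher with DEN on CD (2.76%) and 1 with diet (3.24%), and none lower. Of 5 adipocyte genes 1 was called higher with diet (3.24%). Of 4 erythroid genes 1 was called higher with DEN on CD (2.76%) and 1 passed lower in tumor against peritumoral tissue (18.1%).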
